A study of Mus musculus with 4 samples.

Results

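The transcription factor genes Lhx9, Lhx2, Meis1, Meis2, Tbr1, Eomes, Irx3, Pax6 and Atoh1, known from the rhombic lip and from glutamatergic neurons of the cerebellar nuclei, were followed in ribosome-bound RNA. They were taken by exact symbol from a list of names, and all 9 were among the 32531 gene names counted. The RNA came from the deep cerebellar nuclei of adult, untreated Slc17a6-TRAP mice of line JX883, which carry the ribosomal protein Rpl10a fused to EGFP under an Slc17a6-directed transgene. Antibodies against EGFP pulled down tagged polysomes, so the libraries hold RNA that was bound to ribosomes. The method is meant to capture RNA of cells that express the transgene. There was 1 group of 4 libraries (replicates 1 to 4), each from 3 pooled mice, with library numbers 1300, 1301, 1302 and 1476. No input RNA, other genotype or treatment was analysed here, so the results are levels and their spread over libraries, with no measure of enrichment. The exact age of the mice and the cells in which the transgene is active are not stated in the labels, nor whether the pools held separate mice, and p-values therefore measure only the spread between these libraries.

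The rhombic lip is the dorsal edge of the embryonic hindbrain that gives rise to the glutamatergic neurons of the cerebellum. Its progenitors require the basic helix-loop-helix (bHLH) factor Atoh1, and early-born cells that leave it for the nuclei pass through a sequence of Pax6, then Eomes (Tbr2), then Tbr1, while LIM-homeobox factors (Lhx2, Lhx9) and homeobox factors of the TALE class (Meis1, Meis2, Irx3) mark nuclear neurons as they settle. Several of these genes also serve other cells: Pax6 and Meis1 are found in granule cells, Eomes in unipolar brush cells, and Lhx2, Lhx9, Meis2 and Pax6 in parts of the midbrain and diencephalon.

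Counts assigned to genes totalled between 9621762 and 10988373 per library, so 3 counts, the level that a count of 0 still allows, correspond to between 0.273 and 0.312 counts per 1000000 assigned counts (CPM). These limits and all counting intervals cover counting error only. The targeted transporter gene Slc17a6 ranged from 2011 to 2309 CPM, a 1.15-fold range, and Rpl10a, whose reads can come from the transgene as well as the endogenous gene, from 116 to 202 CPM. Replicate 1 stood apart from the others: 9 genes fixed as markers of midbrain and diencephalon summed to 2710 CPM there and to 37.4, 64.6 and 11.1 CPM in replicates 2 to 4, and 2486 CPM of the former sum came from Tcf7l2, a transcription factor of the thalamus and midbrain. Only Tcf7l2 of the 9 reached 1 CPM in every library. Tfap2d, Pou4f2 and Pou4f1 were also highest in replicate 1, at 146, 45.6 and 19.3 CPM, as was Six3 with 4 counts. Otx2, Lef1 and Dmbx1 were highest in replicate 3 and Foxb1 in replicate 2, so the list did not rise as a whole. Results that rest on replicate 1 are given with and without it. In these bulk libraries, fewer cells of a type and less RNA per cell cannot be told apart.

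Of the 9 factors, 8 reached 1 CPM in every library, against 34.5% of all gene names. Meis2 was the highest, at 342 ± 91.2 CPM (SD, n = 4), above 98.7% of all names by its mean. Lhx9, Meis1 and Lhx2 stood at 91.6 ± 53.8, 44.6 ± 14.8 and 36.7 ± 20.4 CPM. Pax6, Tbr1, Eomes and Irx3 had means between 6.10 and 15.6 CPM. CPM is not divided by gene length, so these means do not order the genes per length. The order per exon length is given below and differs. Atoh1 was the only member with no count in some libraries.

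**Figure D1:**
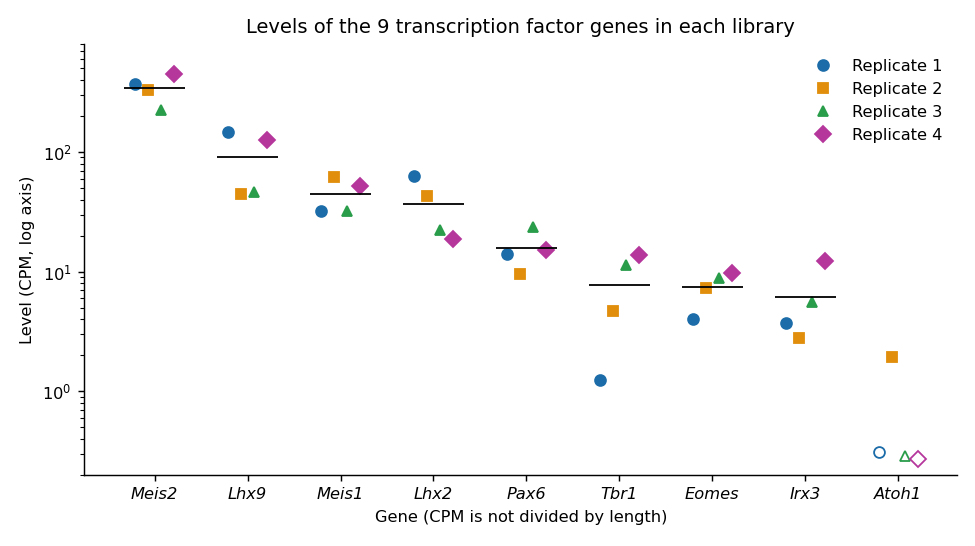
CPM (log axis, not divided by gene length) of the 9 genes in each of 4 libraries. Filled symbols are measured values, black lines are means over 4 libraries, and open symbols mark libraries with no count, drawn at the level of 3 counts. Meis2 lies between 226 and 446 CPM, Tbr1 falls to 1.25 CPM in replicate 1, and Atoh1 has a filled symbol in replicate 2 alone.

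The LIM-homeobox genes Lhx9 and Lhx2 encode closely related factors that bind DNA through a homeodomain and recruit cofactors through paired LIM domains. Lhx9 stood at 148, 44.9, 46.2 and 127 CPM in replicates 1 to 4 (1422, 463, 482 and 1400 counts). Its libraries fell into a high pair, replicates 1 and 4, and a low pair, replicates 2 and 3, with a 3.29-fold range. The ribosomal RNA precursor Rn45s took 4.99, 14.2, 13.6 and 4.92% of assigned counts in replicates 1 to 4, low in the pair where Lhx9 was high, and its part in the Lhx9 values was not tested. The summed midbrain and diencephalon list was at its highest in one library of the high pair and at its lowest, 11.1 CPM, in the other. The part of those genes in the Lhx9 values was not tested. Without replicate 1, Lhx9 stood at 72.8 ± 47.3 CPM (n = 3). The gene lies on the minus strand of chromosome 1 at 138825186 to 138848577 (GRCm38, the build named mm10), with 9 merged exon blocks.

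Lhx2 differed from its paralogue in which libraries were high. It stood at 63.0, 42.6, 22.3 and 18.7 CPM (606, 439, 233 and 206 counts), highest in replicate 1 and lowest in replicate 4, where Lhx9 was near its top. Its 3.36-fold range became 2.27-fold without replicate 1, and its mean became 27.9 ± 12.9 CPM (n = 3). The part of the midbrain and diencephalon genes of replicate 1 in the Lhx2 value of that library was not tested. Lhx2 lies on the plus strand of chromosome 2 at 38339281 to 38369733. No exon of another annotated gene overlaps the exons of either LIM-homeobox member.

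The sequences before the start sites of these paralogues are shown because the genes are close relatives whose levels differed in which libraries were high. RefSeq windows from 250 to 21 bases before the start (GRCm38.p6) were read for Lhx9, at chr1:138842465-138842694 on the minus strand, and for the first of 2 Lhx2 starts, at chr2:38339031-38339260 on the plus strand. Neither window overlaps an annotated exon. The Lhx9 window lies inside the annotated gene, whose 5' end is at 138848577, whereas the Lhx2 window lies before the annotated start of its gene at 38339281. The 2 sites are thus unlike, and no window at the annotated 5' end of Lhx9 was read. Capitals mark matches on either strand to TGACAG, the core bound by Meis factors, to TAATTA, a homeodomain core, or to CANNTG, the E-box of bHLH factors.
Lhx9: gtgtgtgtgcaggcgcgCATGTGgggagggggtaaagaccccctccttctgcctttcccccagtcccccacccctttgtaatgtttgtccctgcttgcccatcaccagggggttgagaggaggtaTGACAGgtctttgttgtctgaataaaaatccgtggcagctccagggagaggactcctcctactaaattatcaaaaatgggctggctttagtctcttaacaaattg
Lhx2: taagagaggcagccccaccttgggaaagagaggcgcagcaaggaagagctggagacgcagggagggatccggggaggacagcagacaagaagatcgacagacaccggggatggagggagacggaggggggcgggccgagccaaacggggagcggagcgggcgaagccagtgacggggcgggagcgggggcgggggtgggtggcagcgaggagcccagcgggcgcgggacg

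The Lhx9 window held 1 TGACAG match, 125 bases before the start, and 1 E-box match, 233 bases before it. The Lhx2 window held none of the 3 motifs in its 230 bases. Among 32851 RefSeq windows of that length, TGACAG occurred in 14.8%, TAATTA in 4.67% and CANNTG in 63.5%, and motifs could overlap one another. The windows also differed in base composition, with 52.2% G and C for Lhx9 and 70.9% for Lhx2. A match is a description of letters and was not tested for binding.

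Among the 12 LIM-homeobox genes, Lhx9 and Lhx2 ranked first and second by length-normalised level, counts per kilobase of exon scaled to 1000000 over genes with a length (TPM, computed here). They stood at 48.4 ± 26.1 and 42.0 ± 20.8 TPM (SD, n = 4). Lmx1a, a factor of the roof plate and of unipolar brush cells, followed at 11.1 ± 4.54 TPM, and Lhx1, a Purkinje lineage factor, at 10 ± 10 TPM. These 4 were the family members that reached 1 CPM in every library. Lhx4, Lhx8, Isl1 and Isl2 had no count in any library. Of 10 cofactor genes that LIM-homeodomain proteins or their partners use, 9 reached 1 CPM throughout, led in CPM by Rlim (174 ± 21.7 CPM), a ubiquitin ligase that acts on the adaptor Ldb1, and by Lmo3, a LIM-only factor, at 155 ± 44.5 CPM. Lmo1 was lowest at 2.32 ± 1.23 CPM.

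**Figure D2:**
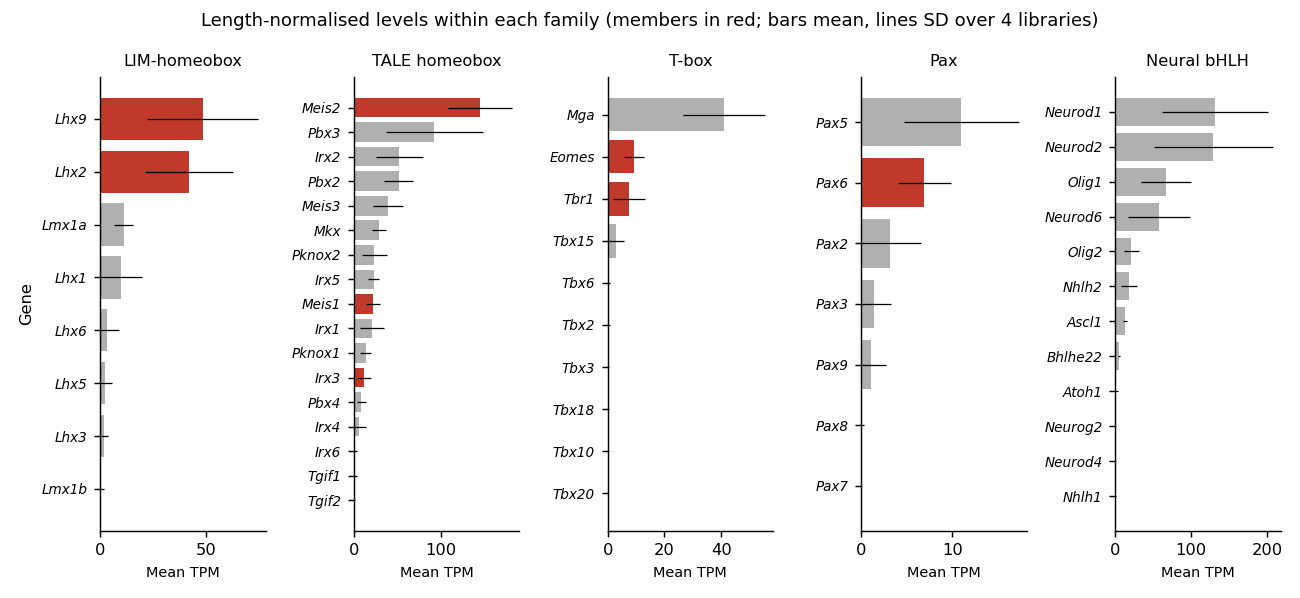
Mean TPM of genes with any count in each of 5 transcription factor families (1 TALE gene is not shown), members in red and other genes in grey. Bars are means and lines the SD over 4 libraries (drawn no lower than 0), and each panel has its own axis. Lhx9, Lhx2 and Meis2 lead their families, at 48.4, 42.0 and 145 TPM, whereas Atoh1 lies at 1.21 TPM.

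Meis1 and Meis2 encode TALE homeodomain factors that bind DNA together with Pbx and Hox proteins. Meis2 stood at 367, 331, 226 and 446 CPM in replicates 1 to 4 (3529, 3413, 2358 and 4897 counts), with a range of 1.97-fold. The highest and lowest values were those of replicates 4 and 3. Meis1 stood at 32.4, 62.1, 32.3 and 51.8 CPM (312, 640, 337 and 569 counts), a 1.92-fold range, and was high in replicates 2 and 4. Both ranges lay below the median of 2.42-fold over the 13226 tested genes with a count in every library. Neither moved when replicate 1 was left out, but the median then fell to 2.03-fold, close to both. Meis2 lies on the minus strand of chromosome 2 at 115863064 to 116065839 and Meis1 on the minus strand of chromosome 11 at 18879817 to 19018985. Exons of Meis1 overlap 896 bases of Gm16140 on the opposite strand and 1029 bases of Gm37818 on its own, and reads there may not be separated.

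Per exon length, Meis2 led all 18 TALE genes at 145 ± 36.4 TPM. The cofactor gene Pbx3 stood at 92.6 ± 55.7 TPM, and Meis1 ranked 10 of 18 at 21.9 ± 7.79 TPM. In CPM, Pbx3 ranged from 55.1 in replicate 1 to 195 in replicate 4. In all, 13 TALE genes reached 1 CPM in every library. Tgif2, a corepressor gene, was lowest at 0.411 ± 0.265 CPM.

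Irx3, an Iroquois factor of the same class, stood at 3.74, 2.81, 5.56 and 12.3 CPM (36, 29, 58 and 135 counts). Replicate 4 was the highest and lay above the other libraries by more than their own spread, and the 4.37-fold range was the same without replicate 1. Its 135 counts have an exact 95% Poisson interval of 113.2 to 159.8, which does not meet the interval of 44 to 75 of the next highest library. Such intervals cover counting error and leave out the spread between libraries. Irx3 ranked 13 of 18 TALE genes at 11.4 ± 8.13 TPM, below Irx2 at 52.5 ± 27.3, Irx5 at 23.1 ± 6.30 and Irx1 at 21 ± 13.6 TPM. Irx3 lies on the minus strand of chromosome 8 at 91798525 to 91802067, and 124 bases of its exons are shared with Irx3os on the opposite strand.

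Eomes and Tbr1 encode T-box factors that follow each other as glutamatergic neurons mature. Tbr1 stood at 1.25, 4.66, 11.3 and 13.7 CPM in replicates 1 to 4 (12, 48, 118 and 151 counts). This 11.0-fold range was the widest among the 8 members with a count in every library, and without replicate 1 it was 2.95-fold. The 12 counts of replicate 1 have an exact 95% Poisson interval of 6.2 to 21, and the 48 counts of the next lowest library one of 35.4 to 63.6. These intervals do not measure the spread between libraries. Eomes stood at 4.05, 7.28, 8.91 and 9.74 CPM (39, 75, 93 and 107 counts), a range of 2.40-fold that became 1.34-fold without replicate 1.

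Both T-box members were thus lowest in replicate 1 and highest in replicate 4. The 7 unipolar brush cell markers, led by Plcb4 and not including Eomes, 6 of which reached 1 CPM in every library, summed to 705, 769, 869 and 1047 CPM, also lowest in replicate 1 and highest in replicate 4. Their part in the Eomes and Tbr1 values was not tested. Of 17 T-box genes, Eomes and Tbr1 took the ranks after the first per exon length at 9.43 ± 3.50 and 7.46 ± 5.63 TPM, below Mga, a broadly expressed partner of Max, at 40.9 ± 14.5 TPM. Tbx15 stood at 2.08 ± 2.36 CPM, and 7 genes, Tbx22 among them, had no count in any library. Tbr1 lies on the plus strand of chromosome 2 at 61802930 to 61814114 and Eomes on the plus strand of chromosome 9 at 118478212 to 118486132, where 118 exon bases are shared with Gm33460 on the opposite strand.

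Pax6, a paired-box and homeodomain factor of rhombic lip progeny, stood at 14, 9.61, 23.6 and 15.2 CPM (135, 99, 246 and 167 counts). Replicate 3 was the highest and replicate 2 the lowest, with a 2.45-fold range that did not change without replicate 1. The 8 granule cell markers, led by Cbln1 and not including Pax6, all of which reached 1 CPM in every library, summed to 894, 1293, 2050 and 999 CPM and were likewise highest in replicate 3, but replicate 2, where Pax6 was lowest, held their second highest sum. Their part in the Pax6 level was not tested. Per exon length Pax6 ranked second of 9 Pax genes at 6.93 ± 2.91 TPM, after Pax5 at 11.0 ± 6.33 TPM, a factor of the midbrain and hindbrain boundary. Pax2, a marker of inhibitory interneuron precursors, stood at 3.12 ± 3.43 TPM, and Pax1 and Pax4 had no count. Pax6 lies on the plus strand of chromosome 2 at 105668900 to 105697364.

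Atoh1, the bHLH factor of rhombic lip progenitors, had 20 counts in replicate 2 (1.94 CPM, exact 95% Poisson interval 12.2 to 30.9 counts) and none in the other libraries. A count of 0 allows up to 0.312, 0.287 and 0.273 CPM in replicates 1, 3 and 4, taken as 3 counts, a one-sided 95% limit, whereas the interval above is two-sided. The gene has a single exon, on the plus strand of chromosome 6 at 64729125 to 64731245, and no other annotated exon overlaps it. Replicate 2 also had the highest sum of choroid plexus and ependyma markers, 210 CPM against 4.64 to 52.6 CPM elsewhere, with Ttr leading and Aqp1 at 0 in all libraries, and their relation to the Atoh1 reads was not tested. Among 19 neural bHLH genes 8 reached 1 CPM in every library and 7 had no count, Atoh7 and Bhlhe23 included. Neurod1 and Neurod2, factors of differentiated neurons, led at 131 ± 69.3 and 129 ± 77.8 TPM. Neurod1 is also a granule cell marker, and like the granule cell sum it was highest in replicate 3 (117 CPM, against 51.3 to 52.9 CPM). Tcf4 and Tcf12, E-proteins that pair with bHLH factors, stood at 233 ± 86.3 and 62.3 ± 16.3 CPM, and Id1, an inhibitor of E-proteins, at 0.0745 ± 0.0936 CPM.

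The members were ordered by their mean of log2((count + 0.5) per kilobase of exon). Each was then compared with the next in that order, its neighbour, within every library. The 3 pairs of paralogues were compared in the same way, 9 pairs in all. The ordering fixed the sign of every neighbour pair's mean, so that direction and its p are no separate evidence for the order. The exact two-sided sign-flip test used here has a smallest possible p of 0.125 with 4 libraries, so no pair could pass 0.05. A pair was called separated beyond its spread where all 4 libraries shared the direction and the mean exceeded 2 SD. By mean log2 level the order was Meis2, Lhx9, Lhx2, Meis1, Irx3, Eomes, Pax6 and Tbr1, and Atoh1 was left out because it had counts in 1 library only.

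Meis2 was separated from both genes it was set against. It exceeded Lhx9 by a log2 difference of 0.97, 2.54, 1.95 and 1.46 in replicates 1 to 4, a mean of 1.73 ± 0.67 (3.31-fold, exact sign-flip p = 0.125, n = 4). It exceeded Meis1 by 3.30, 2.22, 2.61 and 2.91, a mean of 2.76 ± 0.46 (6.78-fold, exact sign-flip p = 0.125, n = 4). Meis2 was thus higher than each of them in 4 of 4 libraries, and these were 2 of the 9 pairs.

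The remaining 7 pairs were not separated beyond their spread. Lhx9 and Lhx2 differed by 0.12, -1.04, -0.06 and 1.65, a mean of 0.17 ± 1.11 (exact sign-flip p = 0.75, n = 4), with Lhx9 higher in 2 libraries and Lhx2 in 2, and without replicate 4 the mean was -0.33. The difference between Tbr1 and Eomes was -2.06, -1.04, -0.06 and 0.09, a mean of -0.77 ± 1.0 (exact sign-flip p = 0.375, n = 4), and -0.33 without replicate 1. In replicates 3 and 4 these T-box members were nearly level, and in replicate 1 Tbr1 was the lower. Meis1 exceeded Irx3 in 4 of 4 libraries, but the mean of 1.10 ± 1.03 stayed under 2 SD. Lhx2 and Meis1 differed by 0.87 ± 1.0 (0.42 without replicate 1), Irx3 and Eomes by 0.14 ± 0.73 (-0.13 without replicate 4), and Eomes and Pax6 by 0.44 ± 0.64. Pax6 and Tbr1 differed by 0.33 ± 1.41, but Tbr1 was the higher in 3 of 4 libraries. Their mean difference turned to -0.35 without replicate 1, so the place of Tbr1 after Pax6 rested on that library. With the longest transcript as length, Eomes lay below Pax6 (-0.74) and Irx3 below Eomes (-0.08). Below Meis2, therefore, no pair of neighbours in the order was separated beyond its spread.

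**Figure D3:**
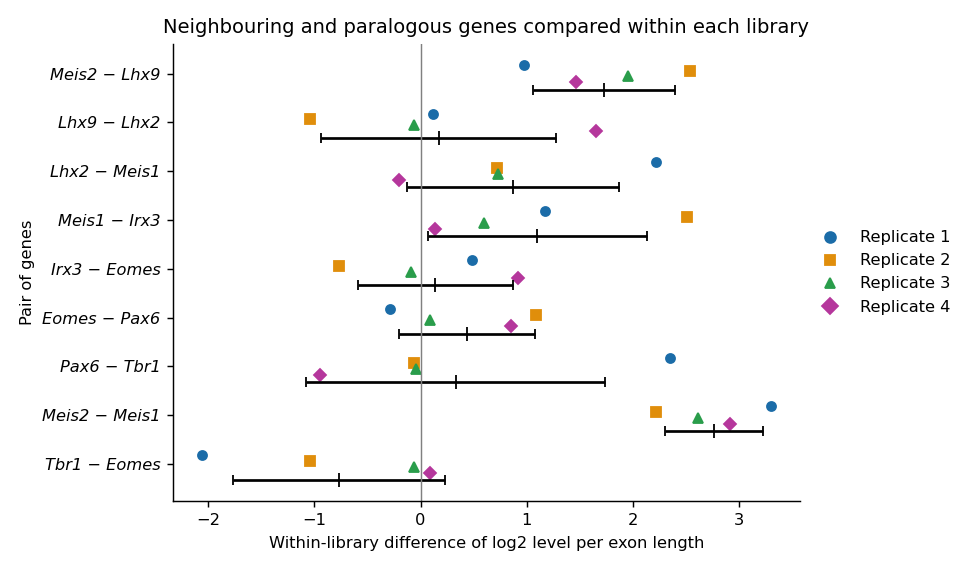
Difference in log2 level per exon length, first gene minus second, for 7 pairs of neighbours in the order of levels, 1 of them the paralogues Lhx9 and Lhx2, and for the other 2 paralogue pairs. Coloured symbols are the 4 libraries, and black ticks with lines are mean ± SD. The symbols of Meis2 − Lhx9 and Meis2 − Meis1 all lie right of 0, from 0.97 upward, while those of Lhx9 − Lhx2 lie on both sides.

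Variation over libraries differed among the members. The SD of log2(CPM + 0.5) was 0.41 for Meis2, 0.47 for Meis1, 0.51 for Pax6 and 0.53 for Eomes, all under the median of 0.54 over tested genes with a count in every library. For Lhx2, Irx3, Lhx9 and Tbr1 it was 0.80, 0.85, 0.92 and 1.38, above that median. Without replicate 1, Tbr1 had an SD of 0.78 and Eomes of 0.20, against a median of 0.50, and Pax6, at 0.63, then lay above the median. Meis2 and Meis1, at 0.49 and 0.48, then lay close to that median. Lhx9 and Meis2 lay on the same side of their own means in all 4 libraries, above in replicates 1 and 4 and below in replicates 2 and 3, although the deviation of Meis2 in replicate 2 was only -0.01. Lhx2 lay opposite to Tbr1, Irx3 and Pax6 in the sense that no library was on the same side of the mean for Lhx2 and for any of these 3.

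**Figure D4:**
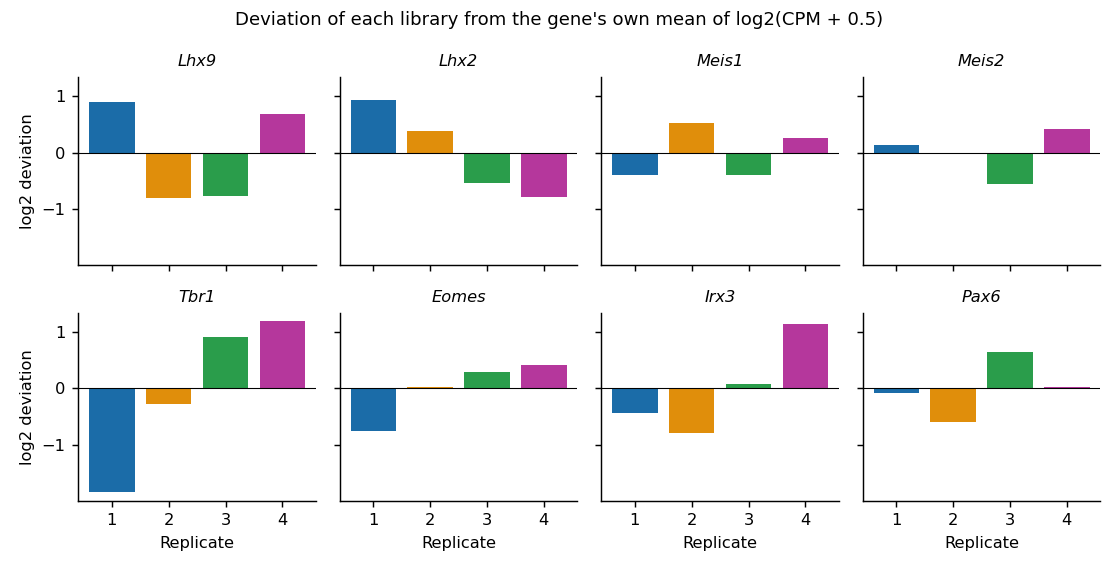
Deviation of each library from the gene's own mean of log2(CPM + 0.5), 1 panel for each of the 8 members with at least 10 counts in every library. Lhx9 is above its mean in replicates 1 and 4 by 0.90 and 0.68, Lhx2 is above it in replicates 1 and 2, and Tbr1 is below it by 1.84 in replicate 1 (deviation -1.84).

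The genes whose profile over the 4 libraries was most like that of a member were found by the root mean square difference of centred log2(CPM + 0.5) among 8845 genes with a mean of at least 10 CPM. For Lhx9 these were Rab9b (difference 0.05), AK040741 (0.08) and Aph1c (0.13). Rab9b, a small GTPase gene, stood at 354, 117, 109 and 314 CPM, in the high and low pairs that Lhx9 showed. Lhx2 was closest to 5730409E04Rik, Rplp0 and Dusp26 (0.03 to 0.04), Meis1 to Ube2m, Idh1 and AK138253 (0.06 to 0.09), Meis2 to Vwa5b2, Cand1 and Zfp738 (0.04 to 0.05), and Pax6 to Ero1lb, Dusp11 and Tnr (0.04 to 0.06). Eomes was closest to Trp53inp1, Nup98 and Tmem185b (0.06 to 0.07) and Irx3 to Gemin5, Prdm8 and Dnaaf5 (0.02 to 0.13). Tbr1 had no gene within 0.25, its nearest being 4930451G09Rik, Kynu and Hif3a (0.29 to 0.32). With only 4 libraries such likeness is common, since 994 genes lay within 0.25 of Meis2 and 36 of Lhx9, and it is a description without a test.

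Replicate 4, whose library number 1476 is set apart from 1300 to 1302 in the labels, was compared with replicates 1 to 3 over the whole table with edgeR's quasi-likelihood test. The comparison has 1 library on one side and describes that library, not a condition. None of the 9 members passed (adjusted p from 0.326 to 0.964, Benjamini-Hochberg over 15083 genes), where 7 genes, 0.0464% of those tested, did. At an unadjusted p under 0.05 there was 1 member, Meis2, and 2222 genes in all, and DESeq2 called 0 members. Meis2 stood at 446 CPM in replicate 4 against a mean of 308 CPM in the others (log2 fold change 0.70, SE 0.31, adjusted p = 0.326), and Irx3 at 12.3 against 4.04 CPM (1.75, SE 0.83, adjusted p = 0.353). Meis2, Tbr1, Eomes and Irx3 were highest in replicate 4, and Lhx2 was lowest there, at 18.7 against 42.6 CPM (log2 fold change -1.0, SE 0.57, adjusted p = 0.439). Over the 8 members with a count in every library the median log2 fold change was 0.68, and over all tested genes it was -0.16. The latter set is not filtered alike, since only 13226 of the 15083 tested genes had a count in every library. The 2 medians are therefore not a like comparison.

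Lhx9 was the member whose call depended on replicate 1. Against replicates 1 to 3 its log2 fold change in replicate 4 was 0.88 (SE 0.58, edgeR adjusted p = 0.506). Against replicates 2 and 3 alone it was 1.58 (SE 0.36, edgeR adjusted p = 0.0488), a call that 0.651% of 14593 tested genes shared in that direction. That comparison has 1 library against 2, and leaving out replicate 1 removes the other library in which Lhx9 was high, so it restates the high and low pairs and is no separate evidence. Without replicate 2 or 3 the value was 0.62 or 0.63 and was not called. Among the family lists no gene was called in replicate 4 in either direction. Called genes made up so small a share of all tested genes, given above, that lists of this size would seldom hold one. The lack of calls is therefore no result about the families.

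Other genes of the same lineage were present to differing degrees. Of 21 further rhombic lip lineage genes, 16 reached 1 CPM in every library, led in CPM by Zic1, a zinc-finger factor of granule cells and dorsal neural tissue, at 188 ± 73.0 CPM, and by Etv1, an ETS factor of granule cells, at 85.1 ± 25.1 CPM. Olig3, a factor of dorsal hindbrain progenitors, had no count, as Atoh1 did in 3 libraries. Their sum was highest in replicate 3, at 841 CPM against 544 to 562 CPM, as was that of the granule cell markers, with which the list shares Neurod1 and Etv1. Of 14 genes of the ventricular zone lineage, which forms the inhibitory neurons and Purkinje cells, 4 reached 1 CPM in every library. Foxp2, a forkhead factor, led them at 171, 36.2, 18.9 and 134 CPM, high in replicates 1 and 4 as Lhx9 was, and Olig2 followed at 10.3 ± 4.46 CPM. Ptf1a, which specifies that lineage, had no count, nor had Neurog1 and Gsx1. No tested gene of the rhombic lip or ventricular zone list was called in replicate 4. So few genes were called over the whole table that this is no result about the lists.

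The markers of other cells, whose part in the members' levels was not tested, varied by library. Purkinje cell markers (7 of 9 at 1 CPM throughout, Itpr1 leading) summed to between 1421 and 3793 CPM, inhibitory nuclear neuron markers (3 of 6, Gad2 leading) to between 73.8 and 372 CPM and astrocyte and Bergmann glia markers (5 of 8, Slc1a3 leading) to between 126 and 307 CPM, each highest in replicate 3 and lowest in replicate 4. Molecular layer interneuron and Golgi cell markers (6 of 6, Kit leading) summed to between 139 and 233 CPM and oligodendrocyte lineage markers (7 of 8) to between 352 and 883 CPM. Microglia markers (1 of 6, Csf1r leading and C1qa at 0 in all libraries) and hindbrain Hox genes (0 of 7, Hoxa2 leading and Hoxb4 at 0) did not exceed 11.5 and 7.47 CPM, and endothelial markers (2 of 6, Flt1 leading) did not exceed 40.6 CPM. Monoamine and acetylcholine genes (2 of 7, Th leading) summed to 6.24, 90.2, 15.5 and 85.5 CPM in replicates 1 to 4. Slc17a6 and Spp1, listed as markers of glutamatergic nuclear neurons, summed to between 2067 and 2387 CPM, nearly all of it Slc17a6. Spp1 alone stood at 133, 56.7, 141 and 78.0 CPM in replicates 1 to 4. The 5 pan-neuronal genes summed to between 19197 and 27675 CPM.

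**Figure D5:**
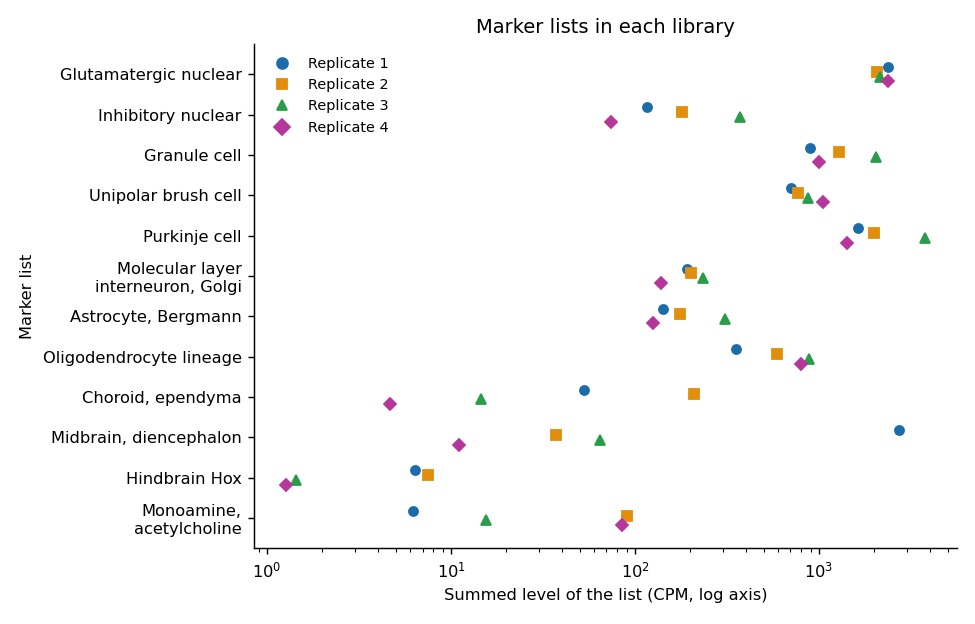
Summed CPM (log axis) of 12 marker lists in each of 4 libraries. The midbrain and diencephalon list lies at 2710 CPM in replicate 1 and at or under 64.6 CPM in the others. The glutamatergic nuclear list, nearly all of it Slc17a6, stays between 2067 and 2387 CPM.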

How the data were processed

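Whole-number read counts per gene name, 1 deposited file for each of 4 libraries, were used as the authors deposited them. Per the submitters' processing notes, STAR 2.0.0e and HTSeq were used with mm10. For the annotation, the kit and the strandedness, nothing is given in the sources used here. HTSeq's summary rows were left out of totals (no feature 14.1 to 21.1%, not unique 14.2 to 20.6%, ambiguous 2.04 to 2.94% of reads). No library repeated another (chi-square over degrees of freedom for each pair from 34.9 to 127). Paralogues can lose reads that were not unique.

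CPM used totals over all gene names. Exon lengths came from GENCODE M21 (GRCm38), which gave a union exon length to 73.4% of names and to 97.2% of names with at least 10 counts in every library. Replicate 4 was tested with edgeR 4.0.16 in R 4.3.3 (TMM, filterByExpr, robust quasi-likelihood fit, 2 residual degrees of freedom, threshold 0.05), with the standard error taken from the fold change and F. On simulated data for this comparison (14395 genes, 200 changed 4-fold) it recovered 49% of the changed genes. Every simulated gene had a dispersion of 0.1, and only genes above a minimum mean were changed. The spread of the real libraries was not matched, so that share does not give the power for the members. Alternatives were DESeq2 1.42.0, RLE scaling, no filter, totals without Rn45s, other lengths and pseudocounts, and each library left out. Named are the members, the 2 highest non-members by CPM and the lowest gene of each family list, the highest gene and those at 0 of marker lists, the 3 genes of nearest profile, Slc17a6 and Rpl10a; any further gene was picked with its values in view. The members and lists were chosen with earlier results of these data known. Some genes that this rule names are not reported here.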

Additional observations from a re-analysis of the deposited data

Results flagged for a closer look

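With 4 libraries a value was marked where the gap between the extreme library and its nearest neighbour, divided by the range, exceeded Dixon's 95% critical value, which chance does in about 1 of 20 groups. In all, 78 values were examined and 5 were marked. Atoh1 was marked for replicate 2, at 1.94 CPM with 0 in the other libraries. A gene with counts in a single library is always marked by this measure. The midbrain and diencephalon markers were marked for replicate 1, at a summed 2710 CPM against 11.1 to 64.6 CPM, as was their leading gene Tcf7l2, at 2486 CPM against 8.55 to 42.0 CPM. The further rhombic lip lineage genes were marked for replicate 3, at a summed 841 CPM against 544 to 562 CPM, and so was Neurod1, a member of that list, at 117 CPM against 51.3 to 52.9 CPM. No level of another member and no pair difference was marked.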

How the results depend on the processing

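Of 204 alternative values, 188 kept their direction, their side of the threshold or their place within 1 SD. The levels of all 9 members moved by less than 1 SD under each scaling. With 1 of the 4 libraries left out a mean cannot move by 1 SD. Those values, counted among the 188, are therefore no check, and the Atoh1 level fell to 0 without replicate 2. The number of members at 1 CPM in every library stayed 8, and was 7 at 2 CPM. Without division by length the log2 difference was 1.28 for Lhx9/Lhx2, -0.40 for Lhx2/Meis1, 3.03 for Meis1/Irx3 and -1.05 for Eomes/Pax6; with the longest transcript as length it was -0.74 for Eomes/Pax6 and 3.41 for Meis2/Meis1. The number of genes called in replicate 4 rose from 7 to 427 with DESeq2, to 416 without a filter and to between 74 and 125 with 1 of the other libraries left out (74 without replicate 2, 82 without replicate 3, 125 without replicate 1); the cause was not tested. Members called numbered between 0 and 1 with a library left out, the 1 being Lhx9 without replicate 1, the other library in which it was high (1.58, edgeR adjusted p = 0.0488; range over its alternatives 0.0488 to 0.723). The near-zero log2 fold change of Pax6 turned to -0.03 without replicate 1 and to -0.15 without replicate 2, and was 0.56 without replicate 3. Of the 24 genes of nearest profile, 13 were shared with a pseudocount of 2. Replicate 4 could not be left out of its own comparison. No paired analysis was possible because there was 1 group. At these depths a gene without a count could still have a level of about 0.3 CPM.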
